A study of Homo sapiens with 6 samples.

Results

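The metallothioneins are described here across the RNAseq libraries of A673/TR/shEF cells. A673 is an established line of Ewing sarcoma with the EWSR1::FLI1 fusion gene, and in A673/TR/shEF cells, which also hold a tetracycline repressor, doxycycline switches on an shRNA against the chimeric mRNA. Total RNA was sequenced in 3 replicates of untreated cells (EWSR1::FLI1 high, below "untreated") and in 3 replicates exposed over 72 h to 1 µg/mL doxycycline (EWSR1::FLI1 low, below "knockdown"). All 6 libraries carry the same engineered genotype, and the cells were kept with blasticidine and zeocin. The deposited labels call the replicates experiments while the description of the design calls them independent clones, so the p-values below measure the spread between these libraries, which may be in part technical. Every knockdown library and no untreated library was exposed to doxycycline, so knockdown and exposure to the antibiotic cannot be told apart. The members were chosen by symbol as the 9 genes MT1A, MT1E, MT1F, MT1G, MT1H, MT1M, MT1X, MT2A and MT3, among 26364 symbols with a deposited value. All 9 are in the table, and 2 of them, MT2A and MT1X, passed the filter of a mean of at least 0.5 FPKM over the 6 libraries. FPKM stands for fragments per kilobase of gene, here scaled by a size factor of each library and not by its total reads.

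Metallothioneins are small intracellular proteins rich in cysteine that bind zinc, copper and, upon exposure, cadmium. Transcription of the MT1 and MT2 genes is raised by free zinc through the zinc-sensing factor MTF1, which binds metal response elements in their promoters, and also by glucocorticoids and by several kinds of stress. MT2A is the widely expressed MT2 gene of human cells, the MT1 genes are a set of close paralogs, and MT3 is known mainly from brain.

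The 9 genes lie in 1 cluster on chromosome 16, within 95.1 kb from 56622986 to 56718108 (GRCh37, gene models of GENCODE v44 lifted to this build). MT2A (ENSG00000125148) extends from 56642496 to 56643409 on the plus strand, and MT1X (ENSG00000187193) from 56716382 to 56718108 on the plus strand, at the far end of the cluster. MT3 (56622986 to 56625000), MT1E (56659387 to 56661024), MT1M (56666571 to 56667893), MT1A (56672578 to 56673999), MT1F (56691643 to 56694610) and MT1H (56703726 to 56705041) are also on the plus strand, while MT1G (56700642 to 56701977) is on the minus strand. The first listed coding transcript of each gene has 3 exons and is short, from 396 bases for MT1A to 704 for MT1E. Because the paralogs are alike, the share of each transcript that another metallothionein gene or pseudogene repeats exactly over 75 bases, the length of 1 read, was counted. It was 0% for MT2A, MT1A, MT1F, MT1M and MT3, 0.794% for MT1E, 6.55% for MT1G, 8.18% for MT1X and 10.8% for MT1H. MT1G and MT1X share 22 such stretches with each other, so a small part of their reads could have been exchanged or set aside in counting. MT1X is also overlapped on the same strand by the long noncoding gene ENSG00000259827, which starts at the same base. The mean expression across the cluster is drawn in the map by distance.

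**Figure D1:**
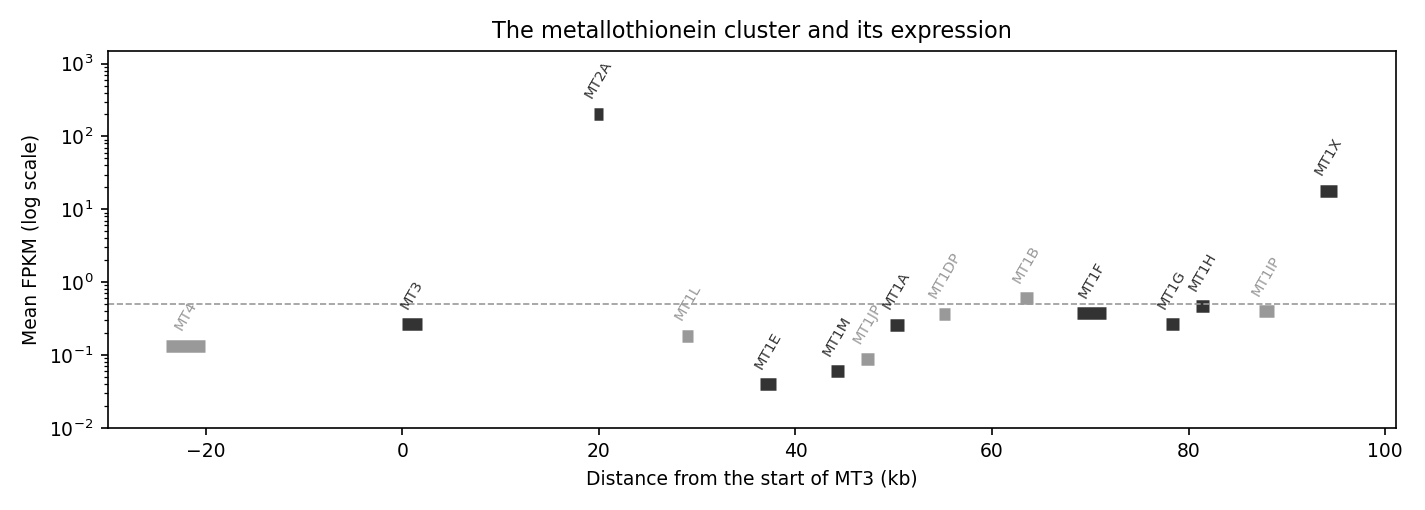
Mean FPKM over the 6 libraries (log scale) of each metallothionein gene or pseudogene of the cluster with a deposited value, against its distance from the start of MT3 in kb. Black bars are the 9 members and grey bars other metallothionein symbols, the bar length is the gene's length, and the dashed line is the filter of 0.5 FPKM; MT2A and MT1X stand far above it and the other members below it.

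The promoters of MT2A, MT1X and MT1H, the 3 of the 9 members with an entry in the RefSeq table used, are shown because MT2A and MT1X were the expressed members while MT1H was almost silent. Each is the 250 bases before the RefSeq transcription start on the plus strand of GRCh38.p14 (not the build of the gene models above), read 5′ to 3′. Capitals mark matches to the core of the metal response element, searched as TGCGCNC and TGCACNC on both strands, and no match overlapped another.
MT2A, chr16:56608334-56608583: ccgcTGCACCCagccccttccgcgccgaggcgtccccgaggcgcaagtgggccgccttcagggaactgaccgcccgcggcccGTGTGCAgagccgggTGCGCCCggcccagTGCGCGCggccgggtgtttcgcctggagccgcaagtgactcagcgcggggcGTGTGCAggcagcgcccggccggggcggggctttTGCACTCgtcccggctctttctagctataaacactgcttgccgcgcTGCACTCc
MT1X, chr16:56682220-56682469: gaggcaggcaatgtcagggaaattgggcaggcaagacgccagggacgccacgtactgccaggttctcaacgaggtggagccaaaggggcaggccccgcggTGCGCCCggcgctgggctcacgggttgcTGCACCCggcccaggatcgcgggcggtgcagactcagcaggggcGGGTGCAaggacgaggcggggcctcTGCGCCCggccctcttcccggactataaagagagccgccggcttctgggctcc
MT1H, chr16:56669564-56669813: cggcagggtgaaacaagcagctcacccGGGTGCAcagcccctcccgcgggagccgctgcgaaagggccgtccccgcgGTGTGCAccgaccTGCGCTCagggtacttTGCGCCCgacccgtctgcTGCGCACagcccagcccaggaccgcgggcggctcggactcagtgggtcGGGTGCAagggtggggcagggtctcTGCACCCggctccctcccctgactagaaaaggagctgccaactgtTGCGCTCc

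The MT2A promoter holds 7 matches, 2 of TGCGCNC and 5 of TGCACNC. That of MT1X holds 4 matches, and that of MT1H holds 8, so MT1H had the most of the 3. Of 35116 RefSeq promoters of the same length, 24.8% hold at least 1 match of either motif (16.8% TGCGCNC and 9.87% TGCACNC), 0.37% hold at least as many as MT1X, 0.0313% at least as many as MT2A and 0.0171% at least as many as MT1H. The letters TATAAA on the strand of the gene, present in 6.80% of all promoters, occur in the window of MT2A and of MT1X and not in that of MT1H. These are matches of letters and not measured binding sites.

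Each library held between 6980361 and 16658933 reads on genes, fewest in knockdown replicate 1. FLI1, which gives the 3′ part of the targeted mRNA, was at 11.3, 12.7 and 14.2 FPKM in untreated replicates 1, 2 and 3, and at 2.91, 4.29 and 3.68 FPKM in knockdown replicates 1, 2 and 3 (log2 fold change -1.57, adjusted p = 0.000676, limma). EWSR1, which gives the 5′ part and is also transcribed from its intact copy, was at 91.5 ± 13.9 and 65.1 ± 16 FPKM (SD, n = 3). The identity of the cells was checked by the presence of 8 Ewing sarcoma markers, all above the filter, with means from 4.56 to 385 FPKM in untreated cells. Apart from identity, all 8 were lower upon knockdown, 7 of them at an adjusted p under 0.01 (limma), beside 3.37% of all genes tested. The exception was CD99, with a log2 fold change of -0.53 and an adjusted p of 0.067 (limma). The 9 markers of epithelial cells, leukocytes and endothelium summed to between 1.83 and 3.28 FPKM per library in untreated cells and to between 2.66 and 4.48 FPKM in knockdown cells, none of the 9 exceeded 1.56 FPKM in any library, and CD14 was listed at 0 in 1 library.

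MT2A accounted for most of the metallothionein mRNA under both conditions. Its expression was 94.4, 148 and 180 FPKM in untreated replicates 1, 2 and 3, and 117, 450 and 240 FPKM in knockdown replicates 1, 2 and 3. Knockdown replicates 2 and 3 were above all untreated libraries, while knockdown replicate 1 lay inside their range, so the groups overlapped. Of all genes tested, 17.5% had every knockdown library above every untreated library. MT2A was higher than 95.5% to 99.7% of the genes tested, depending on the library, and rested on 415 to 1565 reads per library. Between 89.2% and 92.6% of the summed FPKM of the 9 members came from MT2A. In bulk RNA, fewer expressing cells and less mRNA per cell cannot be told apart.

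MT1X was the other expressed member and the only MT1 gene above the filter among the members. It was at 9.91, 11.2 and 17.6 FPKM in untreated replicates 1, 2 and 3, and at 8.07, 33.5 and 27.3 FPKM in knockdown replicates 1, 2 and 3. As for MT2A, replicates 2 and 3 of the knockdown group were above every untreated library. Replicate 1 was the lowest of all 6 in FPKM, a place that depends on the scaling described under processing. The reads behind them numbered 42, 36 and 55 in untreated cells, and 29, 111 and 172 after knockdown. The 95% exact Poisson interval of the 29 reads runs from 19.4 to 41.6, and that of the 111 reads from 91.3 to 134 (counting error only). MT2A was above MT1X in every library, by a ratio of 11.0 ± 1.95 in untreated and 12.2 ± 3.03 in knockdown cells (SD, n = 3), and the ranges of this ratio overlapped, from 9.53 to 13.2 and from 8.77 to 14.5. The summed FPKM of the 9 members was 155 ± 47.7 and 294 ± 181 FPKM (SD, n = 3).

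**Figure D2:**
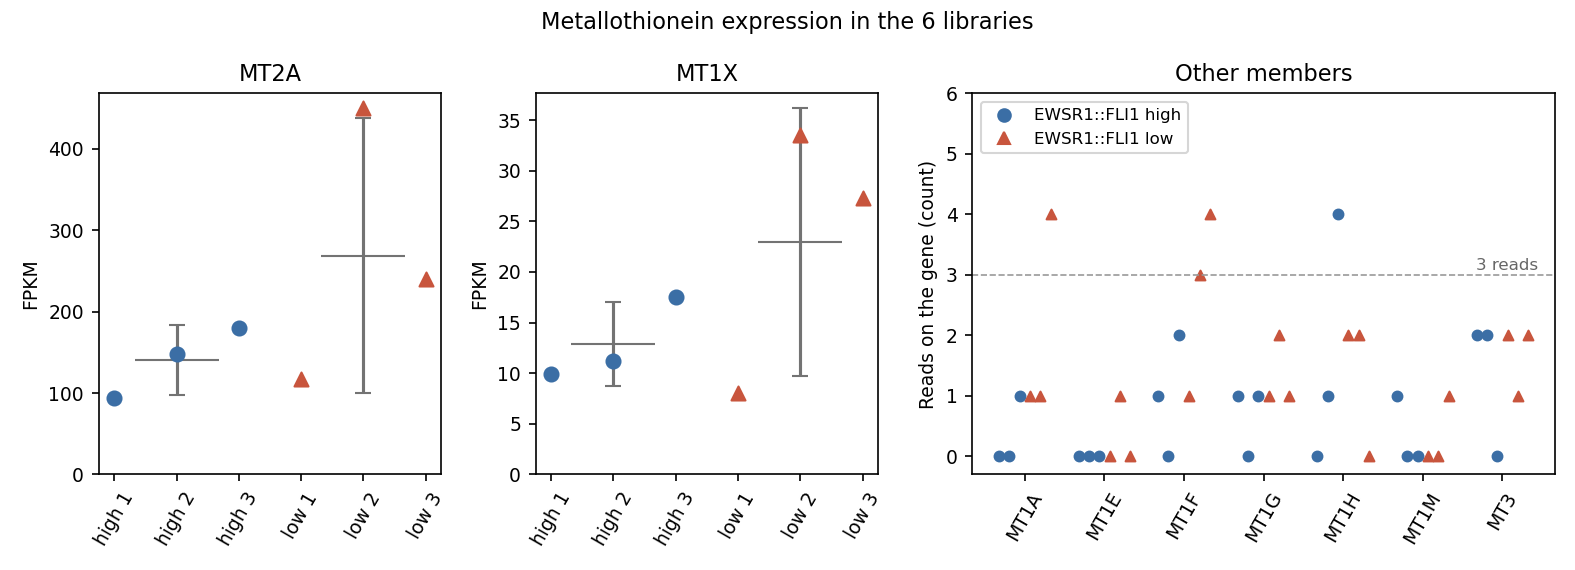
FPKM of MT2A and of MT1X in each library (points, with the mean and SD of each group in grey, n = 3) and reads on each of the other 7 members in each library. Blue is EWSR1::FLI1 high and red EWSR1::FLI1 low; EWSR1::FLI1 low replicate 1 lies within or below the EWSR1::FLI1 high range for MT2A and MT1X, and no other member exceeds 4 reads.

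The question of whether EWSR1::FLI1 knockdown changed metallothionein expression was tested with limma on log2(FPKM + 1), over all 15504 genes that passed the filter, and fold changes are knockdown over untreated on this scale. A gene was called at an adjusted p (Benjamini-Hochberg) under 0.01. Neither MT2A nor MT1X was called in either direction, whereas 4.51% of the genes tested were called higher and 3.37% lower. For MT2A the means were 141 ± 43.3 and 269 ± 169 FPKM (SD, n = 3), and the log2 fold change was 0.77 ± 0.44 (standard error), with an adjusted p of 0.256 (limma). Its 95% interval runs from -0.23 to 1.77, that is from 0.852-fold to 3.42-fold, and so includes both no change and a rise of 3 times. For MT1X the means were 12.9 ± 4.11 and 23.0 ± 13.3 FPKM (SD, n = 3), and the log2 fold change was 0.62 ± 0.46 (standard error), with a 95% interval from -0.43 to 1.66 and an adjusted p of 0.386 (limma). In this fit the p-values of limma before adjustment were 0.116 for MT2A and 0.215 for MT1X, so 0 of these 2 genes was under 0.05 without adjustment. On reads recovered from the deposited values, limma-voom also called 0 of the 2 genes, with log2 fold changes of 0.88 for MT2A (adjusted p = 0.104) and 0.83 for MT1X (adjusted p = 0.186), and 1 of the 2, MT2A, was under 0.05 before adjustment. The median log2 fold change of all genes tested was -0.05.

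The spread was wider within the knockdown group. Against the mean of the untreated libraries, MT2A was at 0.83 in knockdown replicate 1, 3.20 in replicate 2 and 1.7 in replicate 3, and MT1X was at 0.626, 2.60 and 2.12. Without knockdown replicate 1, the log2 fold change of MT1X was 1.21 with an adjusted p of 0.0073, past the limit, and that of MT2A was 1.27 with an adjusted p of 0.0205, short of it (limma). In that fit 10.2% of 14907 genes were called higher, so 1 of the 2 members was called where the share of called genes had also more than doubled. Leaving out knockdown replicate 2 instead gave log2 fold changes of 0.30 for MT2A (adjusted p = 0.645) and 0.25 for MT1X (adjusted p = 0.769, limma). Over all 15 fits the log2 fold change stayed above 0 for both genes, between 0.30 and 1.27 for MT2A and between 0.25 and 1.21 for MT1X. The fits reuse the same libraries and are not independent. Those with another filter, without trend or with the replicate block repeat the estimate of the reported fit by construction. Knockdown replicate 1, with the lowest MT2A and MT1X of its group, also had the lowest FLI1 of all 6 libraries and the fewest reads. The part of the number of reads in these values was not tested.

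**Figure D3:**
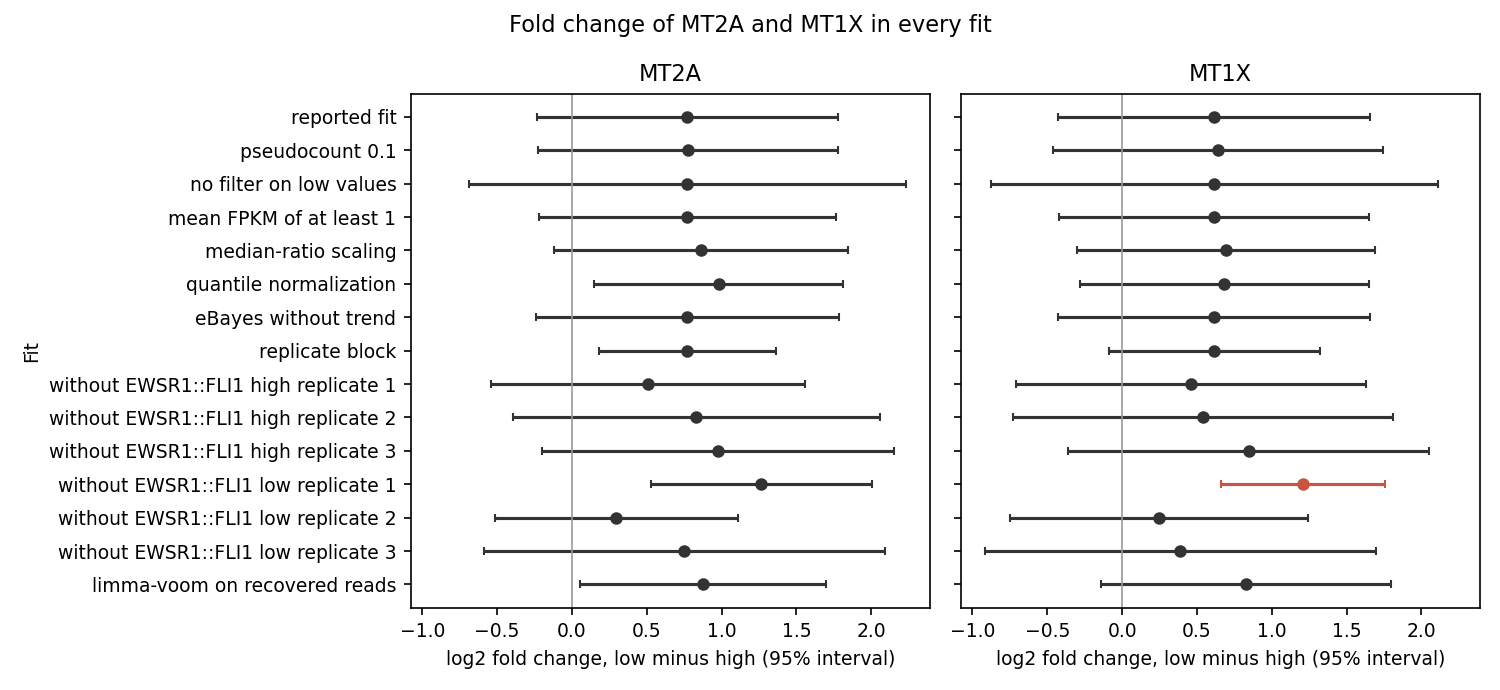
log2 fold change of MT2A and MT1X (EWSR1::FLI1 low minus high, points) with its 95% interval in the reported fit and in each alternative fit. Red marks an adjusted p under 0.01, which was reached for MT1X without EWSR1::FLI1 low replicate 1; all points lie to the right of 0.

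The other 7 members were at the limit of detection in all libraries. Of their 42 values, 16 were 0 reads, 23 were 1 to 3 reads and 3 were 4 reads, and none was higher. MT1A, a metal-inducible MT1 gene, had 0, 0 and 1 reads in untreated replicates 1, 2 and 3, and 1, 1 and 4 reads in knockdown replicates 1, 2 and 3. MT1E had 0 reads in all untreated libraries and 1 read in knockdown replicate 2 alone. Both genes were thus at or near 0 under both conditions, and no fold change is given.

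MT1F had 1, 0 and 2 reads in untreated replicates 1, 2 and 3 and 1, 3 and 4 reads in knockdown replicates 1, 2 and 3. MT1G had 1, 0 and 1 reads against 1, 2 and 1 reads in the same order. MT1H, whose promoter has the most matches printed above, had 0, 1 and 4 reads against 2, 2 and 0 reads. In each of these genes the groups overlapped. MT1M had 1, 0 and 0 reads against 0, 0 and 1 reads, and the neuronal member MT3 had 2, 2 and 0 reads against 2, 1 and 2 reads. The groups overlapped for MT1M and MT3 too.

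Together the 7 genes held 16 reads of 26424517 in untreated and 29 of 32210251 in knockdown libraries. In FPKM, their means over the 6 libraries ran from 0.0402 for MT1E and 0.0604 for MT1M, over MT1A, MT3 and MT1G between 0.261 and 0.265, to 0.376 for MT1F and 0.466 for MT1H. Each of the 7 was listed at 0 in at least 1 library, so no neighbours in this order differed beyond their spread. A level of 3 reads, taken as the floor, corresponds to between 0.331 and 0.978 FPKM for these genes, and differences below it were not detectable at this depth. Their highest value in any library, 1.30 FPKM for MT1H in untreated replicate 3, rested on 4 reads. In a fit without the filter on low values, limma called 0 of the 9 members, beside 0.338% of 26364 genes called higher and 0.133% lower. The lowest adjusted p among the 9 was 0.294, for MT1A, and 0 of the 9 was under 0.05 before adjustment. FLI1, part of the targeted mRNA, also lost its call in that fit (adjusted p = 0.0157, limma), so a missing call there says little. The remaining metallothionein symbols of the table were as low. MT1B, the only one above the filter, had 1 to 3 reads in every library (log2 fold change 0.33, adjusted p = 0.26, limma), and MT4, MT1L, MT1HL1, MT1DP, MT1IP and MT1JP had from 0 to 4 reads each.

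Genes that control metal ions or respond to the same signals as the metallothioneins were examined in 7 lists, of which 67 of 76 genes could be tested. Of these 67, 5 were called higher and 1 lower, beside 4.51% of all genes tested called higher and 3.37% called lower. The calls within each list below stand beside the same shares. MTF1, the zinc sensor that drives metallothionein transcription, was at 2.76 ± 0.501 FPKM in untreated and 2.69 ± 0.418 FPKM in knockdown cells (SD, n = 3), which is -0.03 on the log2 scale with an adjusted p of 0.933 (limma), whose sign turned with median-ratio scaling (0.04).

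Of the 10 zinc exporters of the SLC30 family, 7 could be tested. SLC30A4, which loads zinc into vesicles, rose from 1.03 ± 0.268 to 2.65 ± 0.155 FPKM (SD, n = 3). SLC30A3, the transporter of synaptic vesicles, fell from 1.24 ± 0.33 to 0.164 ± 0.0491 FPKM (SD, n = 3). It had only 3, 2 and 7 reads in knockdown replicates 1, 2 and 3, near the floor. Its mean over the 6 libraries, 0.703 FPKM, passed the filter only through the untreated group. The calls of SLC30A4 and SLC30A3 were both lost without a filter on low values (adjusted p = 0.0631 for SLC30A4 and 0.0317 for SLC30A3, limma). Both were also lost when any library other than knockdown replicate 1 was left out (adjusted p from 0.0183 to 0.0439 and from 0.014 to 0.0437). That of SLC30A4 was also lost with quantile normalization (0.0122) and without trend (0.0102). The median log2 fold change of the list was -0.00439. SLC30A1, which exports zinc across the plasma membrane and is itself a known target of MTF1, is named after its values were seen. It was at 5.38, 4.72 and 6.01 FPKM in untreated replicates 1, 2 and 3 and at 5.57, 13.1 and 8.62 FPKM in knockdown replicates 1, 2 and 3 (log2 fold change 0.60, adjusted p = 0.149, limma; 0.88 and 0.014 without knockdown replicate 1). Like MT2A, it was above the untreated range in knockdown replicates 2 and 3 and inside it in replicate 1. The share of all genes with this pattern was not counted. Without knockdown replicate 1, 10.2% of 14907 genes were called higher.

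Of the 14 zinc importers of the SLC39 family, 11 could be tested and 1 was called higher, beside 4.51% of all genes. SLC39A13, which moves zinc out of intracellular vesicles, rose from 9.48 ± 0.828 to 21.7 ± 3.47 FPKM (SD, n = 3), which is 1.11 on the log2 scale, with an adjusted p of 0.00447 (limma). This call was lost without a filter (adjusted p = 0.0264, limma) and when any library other than knockdown replicate 1 was left out (0.0127 to 0.0329). The median of the list was -0.06. SLC39A14, an importer of zinc, iron and manganese named after its values were seen, was at 22, 86.6 and 50.5 FPKM in knockdown replicates 1, 2 and 3 against 18.2 to 22.2 FPKM in untreated libraries, and was not called (log2 fold change 1.12, adjusted p = 0.0891, limma), but was without knockdown replicate 1 (1.64, adjusted p = 0.00144).

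None of the 12 copper handling genes was called (median log2 fold change 0.11). SOD1, the copper and zinc superoxide dismutase, was at 281 ± 16.5 and 256 ± 55.7 FPKM, and COX17, which delivers copper to cytochrome oxidase, at 155 ± 4.43 and 86.7 ± 28.8 FPKM (SD, n = 3; adjusted p = 0.0372, limma). COX17 was called lower with quantile normalization (adjusted p = 0.0069) and with limma-voom (0.0083). None of the 13 genes of the metal and oxidant response was called either (median 0.19), and 5 of the 13 were without knockdown replicate 1, all higher, in the fit where 10.2% of all genes were called higher. These were NFE2L2, SLC7A11, NQO1, TXNRD1 and SRXN1, named after their values were seen. The ferritin subunits FTH1 and FTL of this list were at 254 ± 15.7 and 333 ± 132 FPKM, and at 297 ± 26.3 and 314 ± 109 FPKM (SD, n = 3).

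The glucocorticoid list held 3 called genes among 9, all higher, beside the 4.51% of all genes called higher. Its median log2 fold change was 0.71, with 6 of 9 genes above 0, and without knockdown replicate 1 the number called higher was 4, beside 10.2% of all genes. NR3C1, the glucocorticoid receptor, rose from 3.22 ± 0.336 to 15.1 ± 3.27 FPKM, KLF9, a transcription factor that the receptor induces, from 1.08 ± 0.172 to 7.99 ± 5.11 FPKM, and ERRFI1, an inhibitor of EGF receptor signalling, from 41.8 ± 2.07 to 300.5 ± 120.5 FPKM (SD, n = 3). All 3 calls were lost without a filter (adjusted p from 0.0134 to 0.0722, limma), as was that of FLI1 (0.0157). That of KLF9 was also lost when any untreated library or knockdown replicate 3 was left out (0.0117 to 0.0254). SGK1 and FKBP5, receptor targets of the same list, are named after their values were seen. SGK1, a kinase, was at 13.6, 16.4 and 24.6 FPKM in untreated replicates 1, 2 and 3 and at 19.5, 70.8 and 57.7 FPKM in knockdown replicates 1, 2 and 3. As for MT2A, knockdown replicate 1 lay inside the untreated range and the other knockdown libraries above it (log2 fold change 1.24, adjusted p = 0.0794, limma; 1.80 and 0.00121 without knockdown replicate 1). FKBP5, a cochaperone of the receptor, was at 6.56 ± 0.465 and 3.84 ± 0.771 FPKM (log2 fold change -0.65, adjusted p = 0.0309, limma), and was called lower with quantile normalization (0.00667) and limma-voom (0.00507). ZBTB16 and PER1 of the list, named after their values were seen, were below 0 too and not called. Their log2 fold changes were -0.74 (adjusted p = 0.0285, limma) and -0.17 (adjusted p = 0.535, limma). None of the 9 heat shock genes was called (median -0.20), with HSPA8 at 871 ± 84.3 and 672.6 ± 140.3 FPKM and HSP90AA1 at 406 ± 45.7 and 281 ± 82.1 FPKM (SD, n = 3).

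The genes beside the cluster on chromosome 16 were compared to see whether the region as a whole moved. Of 9 genes 6 could be tested, none was called, and their median log2 fold change was 0.01. NUDT21, a subunit of the mRNA cleavage complex, was at 68.6 ± 0.916 and 51.8 ± 12.1 FPKM, and OGFOD1, a ribosomal prolyl hydroxylase, at 38.7 ± 3.43 and 32.3 ± 9.84 FPKM (SD, n = 3). HERPUD1, a protein of endoplasmic reticulum quality control named after its values were seen, was at 16.6, 21.1 and 14.6 FPKM in untreated and 24.3, 78.3 and 56.7 FPKM in knockdown replicates 1, 2 and 3. It was not called (log2 fold change 1.42, adjusted p = 0.0317, limma), but was with limma-voom on all 6 libraries (1.57, adjusted p = 0.00675) and without knockdown replicate 1 (1.89, adjusted p = 0.000443).

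The profiles of other genes were set beside that of MT2A over the 6 libraries, with the root mean square difference of log2(FPKM + 1), centred on each gene, as the measure of likeness. Among the genes tested with a mean of at least 5 FPKM, the 5 nearest were PPP1R15A (0.121), a stress-induced subunit of protein phosphatase 1, MYH9 (0.147), a non-muscle myosin heavy chain, GADD45A (0.156), a growth arrest and stress gene, GBP3 (0.169), a guanylate-binding protein, and TNFRSF12A (0.173), the receptor of TWEAK. As follows from their choice by likeness to MT2A over these same libraries, all 5 were lower in knockdown replicate 1 than in replicates 2 and 3. Their adjusted p-values (limma) in the comparison of the groups lay between 0.17 and 0.288. Without knockdown replicate 1, MYH9 (adjusted p = 0.00751, limma) and GADD45A (0.00903) were called higher, and the other 3 were at 0.0107 to 0.0184. PPP1R15A, for instance, was at 18.4, 22.3 and 30.1 FPKM in untreated and at 21.0, 76.8 and 39.1 FPKM in knockdown replicates 1, 2 and 3. MT1X took position 31 of 8602 genes by the same measure (0.261), and SLC30A1 had a difference of 0.369 and FLI1 of 1.26. These distances describe 6 libraries and carry no test, and the fits of the 5 nearest genes were largely set by their choice.

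**Figure D4:**
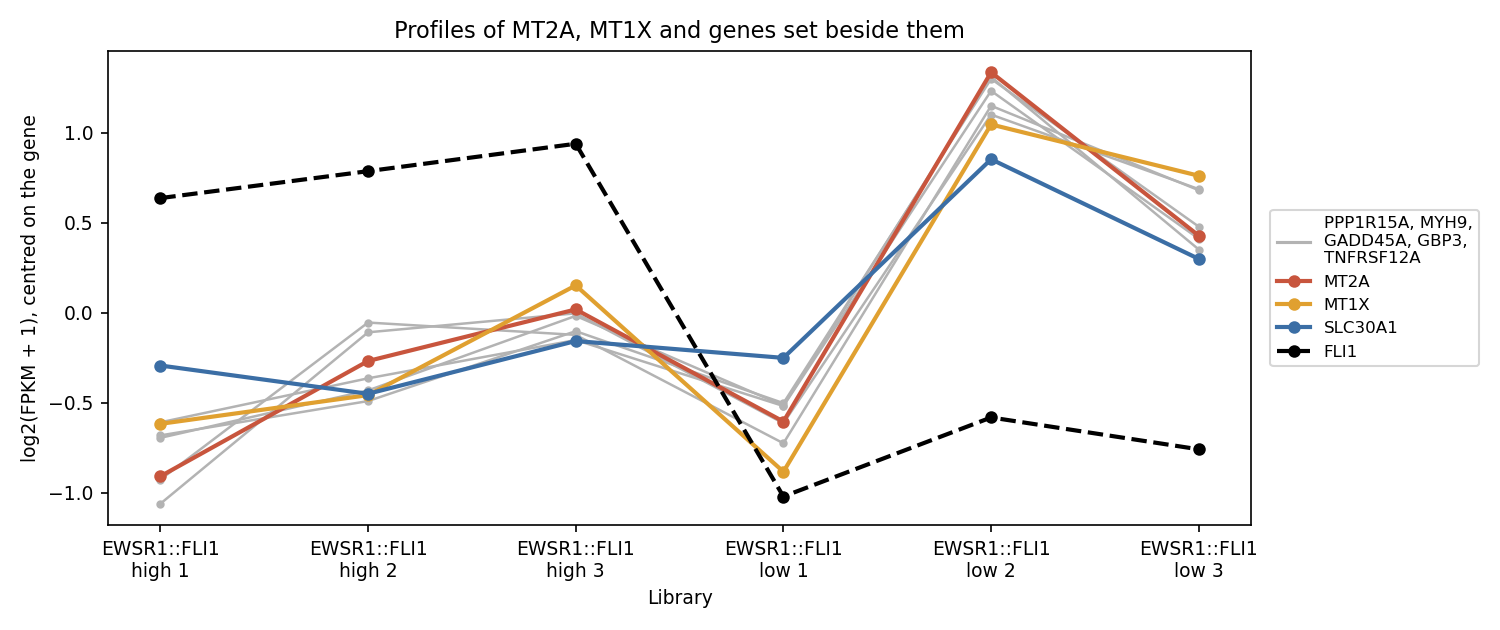
log2(FPKM + 1) of each gene, centred on its mean over the 6 libraries, in each library (lines join the values of 1 gene and show no order of the replicates). MT2A, MT1X, SLC30A1 and the 5 nearest genes (grey, chosen by likeness to MT2A in these libraries) are high in EWSR1::FLI1 low replicates 2 and 3 and not in replicate 1, while FLI1 (dashed) is low in all 3 libraries of that group.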

How the data were processed

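Per the labels, the 6 libraries were made from rRNA-depleted total RNA with the ScriptSeq v2 kit. For mapping to GRCh37 the authors used STAR 2.5.0b; they name Cufflinks 2.2.1 for abundance and deposited 1 FPKM value per symbol and library. Whether counting used strand, and how reads with several positions were treated, is not given in the sources used here. The authors also deposited their DESeq2 (1.6.3) comparison, of which only the mean signal per gene (mean normalized count) was used, and its fold changes and p-values were not. With that mean, 100% of the FPKM values above 0 were whole reads (within 0.1 reads) in every library, which gave reads per gene. The FPKM values were thus scaled by size factors and not by the reads on genes. The factor was 0.951 for EWSR1::FLI1 low replicate 1, with 6980361 reads, and 0.829 for EWSR1::FLI1 high replicate 3, with 8359615 reads. The fit with limma-voom scaled to the reads on genes instead. The floor was 3 reads.

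Genes with a mean of at least 0.5 FPKM were tested with limma 3.58.1 (R 4.3.3, eBayes with trend) on log2(FPKM + 1), a pseudocount of 1, with Benjamini-Hochberg adjustment and a limit of 0.01. The fit was tested on simulated data. The members and gene lists were chosen with earlier results of these data known. Genes named are the members, FLI1, EWSR1, other metallothionein symbols, MTF1, up to 3 called genes per list by size of change (or the 2 most expressed where none was called), the 5 profiles nearest to MT2A, and genes named after their values were seen, as said in place or, for CD99 and CD14, as exceptions among markers. Replicates were compared first, and chi-square over degrees of freedom, computed on reads, was 4.25 to 6.27 for EWSR1::FLI1 high and 20.2 to 31.5 for EWSR1::FLI1 low pairs, so none agreed within sampling noise. Other steps used Python 3.11.15, pandas 2.3.3, scipy 1.17.1 and matplotlib 3.10.9.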

Additional observations from a re-analysis of the deposited data

How the results depend on the processing

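With a pseudocount of 0.1, no filter, a filter of 1 FPKM, eBayes without trend, quantile normalization, median-ratio scaling, limma-voom on recovered reads, a limit of 0.05 and a replicate block, 0 members were called. When each of the 6 libraries was left out in turn, from 0 to 1 member was called higher (MT1X without EWSR1::FLI1 low replicate 1) and 0 lower. Of the genes of the 7 lists, 5 were called higher and 1 lower, against 0 and 0 without a filter, and 2 to 13 higher and 0 to 1 lower in the fits that left out 1 library, with 13 without EWSR1::FLI1 low replicate 1, 3 without EWSR1::FLI1 low replicate 2 and 2 without any other. The number called lower was 0 with a filter of 1 FPKM, which left SLC30A3 (mean 0.703 FPKM) untested. It was 2 with median-ratio scaling, 5 with quantile normalization, 4 with limma-voom and 5 at a limit of 0.05. The log2 fold change of SOD1 became 0.030 with quantile normalization, that of MTF1 0.039 with median-ratio scaling and between -0.12 and 0.0749 when 1 library was left out, and that of FTL between -0.232 and 0.248. The causes were not tested. The summed FPKM without MT2A was 14.3 in EWSR1::FLI1 high and 25.0 in EWSR1::FLI1 low.

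Over all genes, 700 were called higher and 522 lower, against 89 and 35 without a filter, where 26364 genes were tested, 992 and 1000 with quantile normalization, 994 and 813 with median-ratio scaling, 1245 and 1146 with limma-voom, 916 and 786 with the replicate block, and 308 to 1527 and 157 to 807 when 1 library was left out. Same-numbered libraries deviated together with r = 0.27, 0.09 and 0.12, all above 0. For other pairs r lay between -0.29 and 0.19, the highest for EWSR1::FLI1 high replicate 3 with low replicate 2. These correlations did not settle whether the libraries are paired. The labels number the experiments alike in both groups, but whether a number marks a shared experiment was not settled. The reported fit takes no account of pairing. Within same-numbered pairs MT2A was higher after knockdown in 3 of 3 and MT1X in 2 of 3. With the replicate block the adjusted p (limma) was 0.0624 for MT2A, 0.181 for MT1X and 0.00941 for HERPUD1. Depth limits the 7 members with 0 to 4 reads, for which no change could be measured.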
